A study of Mus musculus with 8 samples.

Results

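Pdx1, Sox9, Gata6, Foxa2, Hnf4a, Klf5, Cdx1, Cdx2 and Onecut2 encode transcription factors of the pancreatic, foregut and intestinal lineages, and their mRNA levels were followed across the cell groups and carcinoma states of 2 mouse pancreatic tumors. The 9 genes were chosen by name. Each was found once among the 27775 gene rows of both count tables. The tumors were pancreatic ductal adenocarcinomas of untreated KPC mice, 1 of medium size and 1 of large size. Both mice carried mutant alleles that stay silent until Cre recombinase removes a stop cassette, LSL-Trp53 R172H/+ among them, together with Pdx-1-Cre, in which the promoter of one of the 9 genes drives Cre in the pancreatic lineage. Each tumor was dissociated to single cells and captured with the 10x Genomics Chromium 3′ v2 chemistry, which counts unique molecular identifiers (UMIs), 1 for each captured mRNA molecule. The labels give 4 technical replicates for each tumor, but these are pooled in 1 table, so each size is 1 sample, no comparison has a replicate check and no p-value is given.

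During development, Pdx1 is required for the pancreas to form and later maintains beta cells, while Sox9 marks pancreatic progenitors and, in the adult, ducts. Foxa2 and Gata6 are endoderm factors that act early in foregut and pancreas, Foxa2 as a pioneer factor that opens chromatin, and Onecut2 belongs to the cut-homeobox family that acts in liver, pancreas and gut endoderm. Hnf4a is a nuclear receptor that drives hepatocyte and enterocyte genes, and Klf5 is a zinc finger factor of proliferating gut epithelium. Cdx1 and Cdx2 are caudal homeobox factors that set intestinal identity. Loss of endoderm factors such as Gata6 and Hnf4a is known to accompany basal-like or mesenchymal states of human pancreatic cancer. No group of healthy pancreas was measured here.

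The promoter windows of Hnf4a, Foxa2, Pdx1 and Cdx2 are shown because Hnf4a, Foxa2 and Pdx1 were past 2-fold between intestinal-like and other epithelial-like cells of the large size tumor, and Cdx2 is the neighbour of Pdx1. Each window is the 250 bases before a start site in RefSeq on GRCm38.p6, written 5′ to 3′ on the strand of the gene. Capitals mark matches, on either strand, to short motifs of the factor families of 8 of the 9 genes. The letters searched were CAAAGNCCA for HNF4, TGTTTAC for the FOXA family, TTTATNG for the CDX family, AGATAA for the GATA family, ACAATNG for the SOX family, ATTGATT for the ONECUT family and CCACACCC for the KLF family. Hnf4a has 2 start sites in this table, on chromosome 2, plus strand, at chr2:163506607-163506856 for the window farther 5′ and chr2:163546905-163547154 for the other. The first is known as the P2 promoter, used in pancreas, stomach and gut, and the second as P1, used in liver, kidney and gut, and counts from the 3′ end of the mRNA do not tell them apart. Foxa2 is read from the minus strand of chromosome 2 and has 3 start sites in the table, of which the window farthest 5′, chr2:148046970-148047219, is shown. Pdx1, at chr5:147269847-147270096 on the plus strand, and Cdx2, at chr5:147307250-147307499 on the minus strand, are neighbours that point towards each other with 24956 bases between their 3′ ends.
Hnf4a, first start: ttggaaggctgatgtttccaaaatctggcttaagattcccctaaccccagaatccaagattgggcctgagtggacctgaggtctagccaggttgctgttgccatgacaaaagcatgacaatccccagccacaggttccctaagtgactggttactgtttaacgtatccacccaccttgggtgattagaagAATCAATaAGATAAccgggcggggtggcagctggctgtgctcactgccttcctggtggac
Hnf4a, second start: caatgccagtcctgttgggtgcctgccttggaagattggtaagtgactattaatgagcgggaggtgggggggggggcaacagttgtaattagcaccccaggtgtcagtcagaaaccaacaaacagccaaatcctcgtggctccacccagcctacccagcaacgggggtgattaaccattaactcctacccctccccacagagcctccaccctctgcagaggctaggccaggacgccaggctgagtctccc
Foxa2, first start: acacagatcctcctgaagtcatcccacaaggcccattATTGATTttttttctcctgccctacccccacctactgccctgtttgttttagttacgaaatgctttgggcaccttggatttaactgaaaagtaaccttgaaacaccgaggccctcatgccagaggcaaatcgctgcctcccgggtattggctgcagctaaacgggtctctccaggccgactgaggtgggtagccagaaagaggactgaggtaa
Pdx1: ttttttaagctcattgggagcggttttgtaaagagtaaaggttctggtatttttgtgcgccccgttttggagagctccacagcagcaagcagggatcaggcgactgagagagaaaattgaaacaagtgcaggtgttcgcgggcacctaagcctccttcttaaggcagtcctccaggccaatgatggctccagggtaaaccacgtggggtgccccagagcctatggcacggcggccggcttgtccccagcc
Cdx2: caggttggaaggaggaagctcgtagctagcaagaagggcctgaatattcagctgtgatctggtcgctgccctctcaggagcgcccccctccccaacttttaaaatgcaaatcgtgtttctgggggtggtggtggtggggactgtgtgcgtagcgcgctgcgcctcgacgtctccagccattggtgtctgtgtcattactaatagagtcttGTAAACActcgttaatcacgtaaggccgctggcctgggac

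Among 7 windows searched, 5 of them printed, the first Hnf4a window held an ONECUT match that begins 60 bases before the start and a GATA match that begins 52 bases before it. The first Foxa2 window held an ONECUT match 213 bases before the start, the third, which is not printed, a GATA match 183 bases before it, and the Cdx2 window a FOXA match 40 bases before its own. Over 32851 windows of the same length, the ONECUT letters were in 2.61%, the GATA letters in 9.99% and the FOXA letters in 3.17%. The HNF4 (1.70% of all windows), CDX (9.81%), SOX (6.91%), KLF (3.20%) and HNF1 (0.00913%) letters were in none of the 7. Distances are to RefSeq starts and depend on the annotation. In GENCODE M21, Hnf4a begins at 163506808, Pdx1 at 147269959 and Cdx2 at 147307270, each inside its window shown. A match is a run of letters only, and binding was not measured. The ONECUT and GATA matches of Hnf4a do not overlap. Klf5 and Sox9 had no window in the table, and those of Cdx1, Gata6 and Onecut2 were not analysed here, although Cdx1 was past 2-fold in the same comparison.

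A total of 20301669 UMIs came from 2812 cells of the medium size tumor (median 5456.5 per cell). The large size tumor was shallower, with 2239012 UMIs from 1533 cells (median 1037), and gives the wider intervals. Levels are UMIs per 1000000 UMIs of all cells in a group (CPM), with exact 95% Poisson intervals that cover counting error only, and a sum of 0 is given with the CPM that 3 counts would make. The same 5 cell barcodes occur in both tables. Clustering left out the 9 genes and the companion factors listed further on, and clusters were named from marker genes. Epithelial-like clusters held 2327 cells (82.75%) in the medium and 1219 cells (79.52%) in the large size tumor, beside monocyte/macrophage-like, stromal-like and endothelial-like clusters in both and a mesothelial-like cluster in the medium. No cluster was named acinar-like or endocrine-like.

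In the medium size tumor, 7 of the 9 factors were more than 2-fold higher in epithelial-like cells than in all other cells, against 14.5% of 12681 genes with at least 20 UMIs. The median ratio of the 8 factors with at least 20 UMIs was 3.21, against 1.12 for all genes. Pdx1 was at 28.3 CPM (25.9 to 30.9) in epithelial-like and 4.04 CPM (1.85 to 7.67) in other cells, a ratio of 7.02. The ratios of Foxa2 (3.35), Onecut2 (3.22), Hnf4a (3.20), Klf5 (2.89) and Sox9 (2.5) followed. That of Cdx2 was 4.01 (1.07 to 33.8) and rests on 2 UMIs in the other cells, so its place in the order is not resolved. Gata6 was the exception, at 59.0 CPM (55.5 to 62.6) against 49.4 CPM (40.6 to 59.5), a ratio of 1.2 (0.981 to 1.47). Of its 110 UMIs in the other cells, 67 lay in the 74 mesothelial-like cells. Cdx1 had no UMI in the tumor, which allows up to 0.148 CPM. At a clustering resolution of 1.2 in place of 0.8, 3 factors were past 2-fold, since 223 of the 225 cells of one cluster (cluster 8) then lost the epithelial-like name.

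Other cells were not alike in these factors. Monocyte/macrophage-like cells held 0 UMIs of Pdx1, 12 each of Sox9 and Gata6, 13 of Klf5 and 52 of Onecut2. For Onecut2 this makes 56.5 CPM (42.2 to 74.1), against 618.4 CPM (607 to 630) in epithelial-like cells. The part of free RNA and mixed droplets in these values was not tested. A cluster of 67 cells that carried both epithelial and myeloid markers and so stayed unnamed held Onecut2 at 600.8 CPM and Sox9 at 205.2 CPM, and the 39 endothelial-like cells, with 3 epithelial markers, held Sox9 at 180.7 CPM and Klf5 at 143.7 CPM. Without these 2 clusters the same count of 7 factors was past 2-fold, with ratios of 15.5 for Pdx1, 5.08 for Sox9, 6.08 for Klf5 and 6.52 for Onecut2.

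Gata6 had its highest level outside the carcinoma. The 74 mesothelial-like cells, in which 6 of 6 mesothelial and 5 of 10 stromal markers were detected, held 67 UMIs of Gata6, or 171.1 CPM (133 to 217), which is 2.90 times the epithelial-like level (2.23 to 3.72). A Gata6 UMI was seen in 48.6% of these cells (36.9 to 60.6, exact binomial), in 32.2% of epithelial-like cells and in 5.04% of monocyte/macrophage-like cells. After every cell was thinned to 2500 UMIs the shares were 33.8%, 12.9% and 3.36%. The 6 other factors with enough UMIs were lower in mesothelial-like than in epithelial-like cells. Ratios were 0.27 for Pdx1, 0.274 for Foxa2, 0.285 for Hnf4a, 0.289 for Onecut2, 0.331 for Sox9 and 0.353 for Klf5. The median ratio was 0.31 over 8 factors, Cdx2 and Gata6 among them, against 0.975 over all genes. No share of all genes past 2-fold is given for this comparison, so the count of 6 is not read against a background. Cdx2 and Cdx1 had no UMI in this group, where 3 counts make 7.66 CPM, more than the 3.6 CPM of Cdx2 in epithelial-like cells, so a difference was not detectable. The antisense gene 1010001N08Rik overlaps Gata6 and held 86 UMIs in the tumor against 1176 of Gata6. Antisense genes also overlap Hnf4a (Hnf4aos, with 2 UMIs in the medium and 0 in the large size tumor) and Pdx1 (Plut), and Gm25881 overlaps Hnf4a on the same strand. Since the strand setting of the counting is not given in the sources used here, reads of these pairs may be shared.

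**Figure D1:**
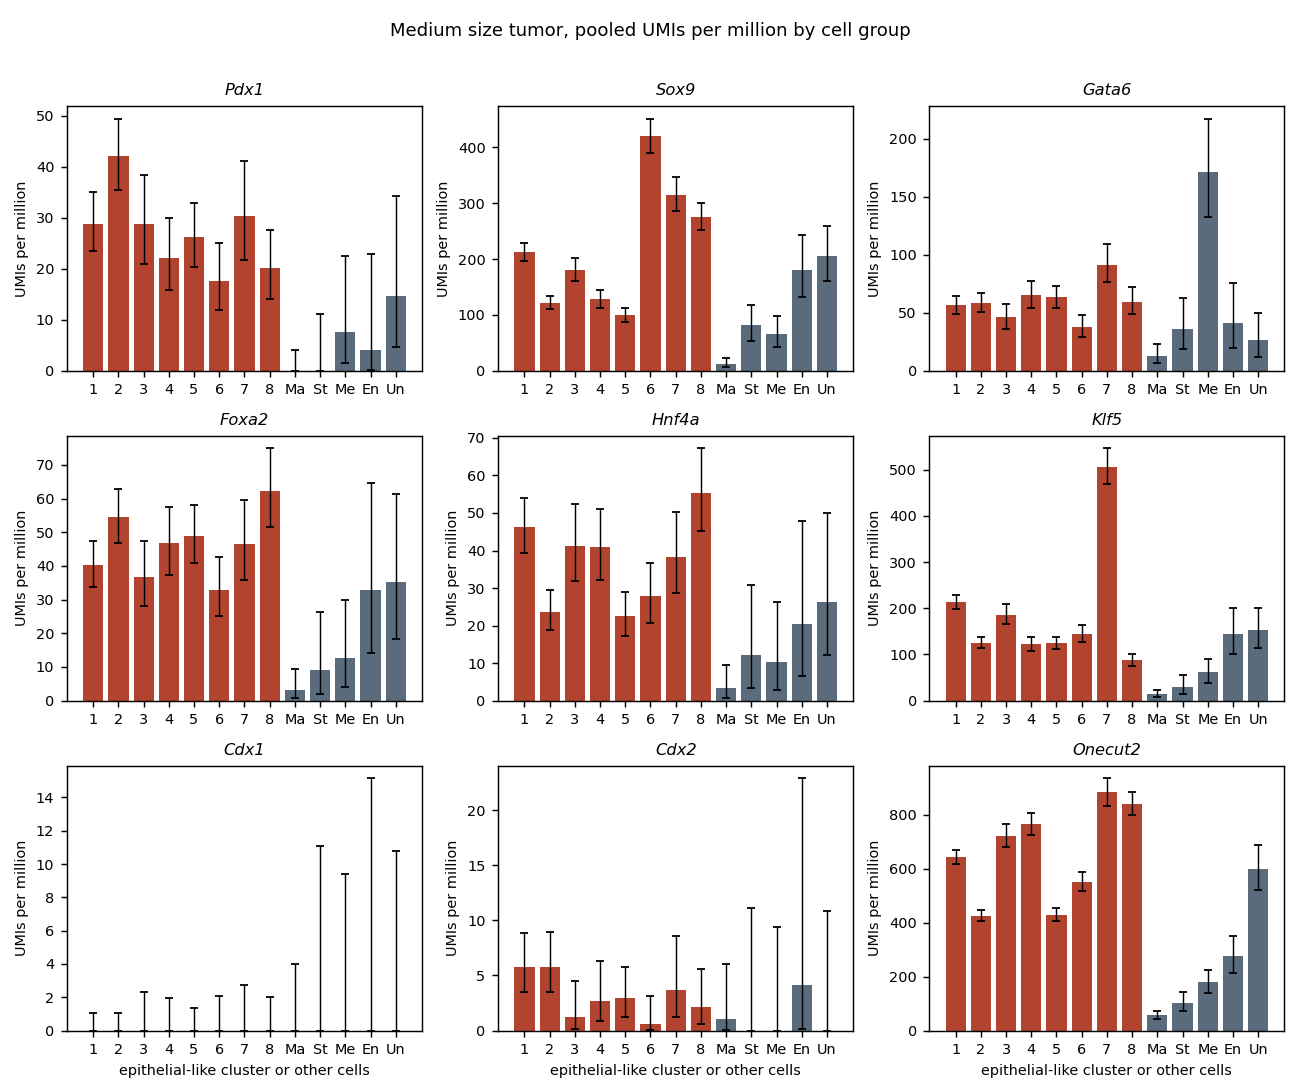
Levels of the 9 factors in the medium size tumor, in CPM, for the 8 epithelial-like clusters (red) and for monocyte/macrophage-like (Ma), stromal-like (St), mesothelial-like (Me), endothelial-like (En) and unnamed (Un) cells (grey). Bars are pooled levels and lines exact 95% Poisson intervals. Sox9 peaked in cluster 6, Klf5 in cluster 7 and Gata6 in the mesothelial-like cells.

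The 8 epithelial-like clusters of the medium size tumor stand here for carcinoma states. Cluster 1 (525 cells) was gastric pit-like, led by the gastrokines Gkn1, Gkn2 and Gkn3, and cluster 2 (293 cells) was cycling, led by Ube2c, Birc5 and Cenpf. Cluster 3 (285 cells) was led by Tff3, Ly6d and Reg1 and held 4 of 7 goblet cell markers, past the 50% used for intestinal-like clusters in the large size tumor, cluster 4 (273 cells) by Mcpt8, Cldn6 and Hmga2, and cluster 5 (258 cells) by Yap1, Dcun1d5 and Birc2. Cluster 6 (236 cells) was led by Krt17, Cldn4 and Slco2a1 and held 3 of 7 basal markers. Cluster 7 (232 cells) was led by Dmbt1, Lcn2 and Sftpd, genes of mucosal defence. Cluster 8 (225 cells) was led by Inhba, Bmp2 and Piezo2 and held 5 of 9 mesenchymal and only 3 of 11 epithelial markers, with Cdh1 at 92.8 CPM against 244.2 CPM over all epithelial-like cells and Vim at 1580 CPM against 818.4 CPM. Cluster 5 held the same number of mesenchymal markers, 5, but 8 epithelial ones. Ly6d, which leads cluster 3, is on the B cell list, although 10 of 11 epithelial markers were detected in this cluster. Only cluster 6 (Cldn4) had an epithelial marker among its 10 leading genes.

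Sox9, the ductal factor, and Klf5 had the widest ranges of the factors with over 100 UMIs. Sox9 (chr11:112782224-112787760, plus strand, GRCm38) was lowest in cluster 5 at 99.3 CPM (87.8 to 112), had a median of 196.2 CPM over the clusters and was highest in cluster 6 at 419.8 CPM (390 to 451), a ratio of 4.23. Clusters 7 (315.2 CPM) and 8 (275.1 CPM) came next, and cluster 6 lay above all 7 others beyond counting error. Against all other epithelial-like cells, cluster 6 was 2.37 times higher (2.18 to 2.57) and cluster 5 was at 0.454 times their level (0.4 to 0.514). Of the 2 clusters with 5 mesenchymal markers, cluster 8 was thus among the highest for Sox9 and cluster 5 among the lowest. The interval of cluster 5 overlapped that of cluster 2 (121.6 CPM, 110 to 134), so the low end is not resolved.

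Klf5 (chr14:99298691-99315036, plus strand) was lowest in cluster 8 at 87.4 CPM (74.4 to 102), had a median of 134.8 CPM and was highest in cluster 7 at 506.4 CPM (469 to 546), a ratio of 5.80. At the lower clustering resolution of 0.4 this ratio was 3.80. Cluster 7 was 3.45 times the level of the other epithelial-like cells (3.17 to 3.76), and cluster 8 was at 0.476 times (0.404 to 0.558). The gastric pit-like cluster 1, at 213.6 CPM, and cluster 3, at 185.9 CPM, lay between. A Klf5 UMI was seen in 86.2% of the cells of cluster 7 and in 40.4% of those of cluster 8.

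Hnf4a and Foxa2, which are known for epithelial identity, were not lowest in cluster 8, the cluster with the fewest epithelial markers. Hnf4a was lowest in cluster 5 at 22.4 CPM (17.2 to 28.8) and highest in cluster 8 at 55.3 CPM (45.1 to 67.2), with a median of 39.6 CPM. Foxa2 was lowest in cluster 6 at 32.9 CPM (25 to 42.6) and highest in cluster 8 at 62.4 CPM (51.5 to 74.9), with a median of 46.6 CPM. Neither gene parted cluster 8 from the 4 clusters next in order beyond counting error, so the order at the top is not resolved. Against the other epithelial-like cells together, cluster 8 was 1.64 times higher for Hnf4a (1.32 to 2.03) and 1.39 times for Foxa2 (1.13 to 1.70), both within 2-fold.

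Onecut2 was detected in more epithelial-like cells than any other of the 9 genes, with a UMI in 89.3% of them and in 9.24% of monocyte/macrophage-like cells. It ran from 426.2 CPM (405 to 449) in the cycling cluster 2 and 429.0 CPM in cluster 5 to 883.6 CPM (834 to 935) in cluster 7 and 841.6 CPM (800 to 885) in cluster 8. The highest level was 2.07 times the lowest, and clusters 7 and 8 overlapped. Clusters 2 and 5 were not resolved from each other at the low end. For Pdx1, cluster 2 had the highest level, with intervals that overlap those of clusters 7 and 3. Pdx1 was at 42 CPM (35.4 to 49.4) in cluster 2, between 20.1 and 30.3 CPM in 6 clusters and at 17.6 CPM (12 to 25) in cluster 6. The cycling cells were 1.67 times the other epithelial-like cells for Pdx1 (1.37 to 2.03) and 0.642 times for Onecut2 (0.608 to 0.678).

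Gata6 ran from 38.1 CPM (29.5 to 48.3) in cluster 6 to 91.5 CPM (76.1 to 109) in cluster 7, with 46.2 to 65.0 CPM in the other 6, a highest level 2.41 times the lowest. The Krt17-led cluster 6 was highest for Sox9 and lowest for Pdx1, Foxa2 and Cdx2 as well as Gata6. For these last 4 genes no neighbouring clusters in the order had intervals apart, so their lowest place is not resolved. Cdx2 was sparse, with 65 UMIs over all epithelial-like cells, of which 20 lay in cluster 1 and 20 in cluster 2, and 1 to 8 in each of the others. Its level was 5.75 CPM (3.51 to 8.88) in cluster 1, 5.79 CPM (3.54 to 8.94) in cluster 2 and 0.568 CPM (0.0144 to 3.17) in cluster 6. Cdx1 was at 0 in all 8 clusters, where 3 counts would make 0.166 CPM over their cells together.

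Past 2-fold against the other epithelial-like cells in at least 1 of the 8 clusters were 3 factors, Sox9, Klf5 and Cdx2, against 54.6% of 12118 genes tested the same way. For Cdx2 this rests on 1 UMI in cluster 6 and 2 in cluster 3. At the higher clustering resolution of 1.2, which made more and smaller clusters, 6 factors were past 2-fold, so no reading against the background is made.

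A second view ordered the same 2327 cells by the first principal component of their expression, computed without the 9 genes and the companion factors and turned so that Vim, a mesenchymal filament gene, was higher at the high end. Among the 775 cells at the low end Vim was at 77.8 CPM and Epcam at 2022 CPM, and among the 776 cells at the high end at 1366 CPM and 486.2 CPM. Cells at the high end also had more UMIs, with a median of 8439 against 4702, and the part of depth in these values was not tested. Only Klf5 was past 2-fold, 1 of the 8 factors with at least 20 UMIs, against 25.3% of 11556 genes. The median ratio was 0.852 for the 8 factors and 1.04 for all genes.

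Klf5 was at 310.3 CPM (294 to 327) at the low end, 173.3 CPM (163 to 185) in the middle and 100.9 CPM (94.1 to 108) at the high end, a ratio of high to low of 0.325 (0.298 to 0.355). Sox9 (ratio 0.675, 0.623 to 0.731), Onecut2 (0.687, 0.656 to 0.720) and Hnf4a (0.758, 0.626 to 0.920) were lower at the high end within 2-fold. Foxa2 went the other way, from 38.3 CPM (32.7 to 44.6) to 54.5 CPM (49.5 to 59.8), a ratio of 1.42 (1.19 to 1.71). Pdx1 (0.95, 0.762 to 1.19) and Gata6 (0.947, 0.813 to 1.10) were the same at both ends within counting error. Without cluster 8 the Sox9 ratio was 0.494, and without cluster 3 it was 0.472, which puts 2 factors past 2-fold in each case.

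**Figure D2:**
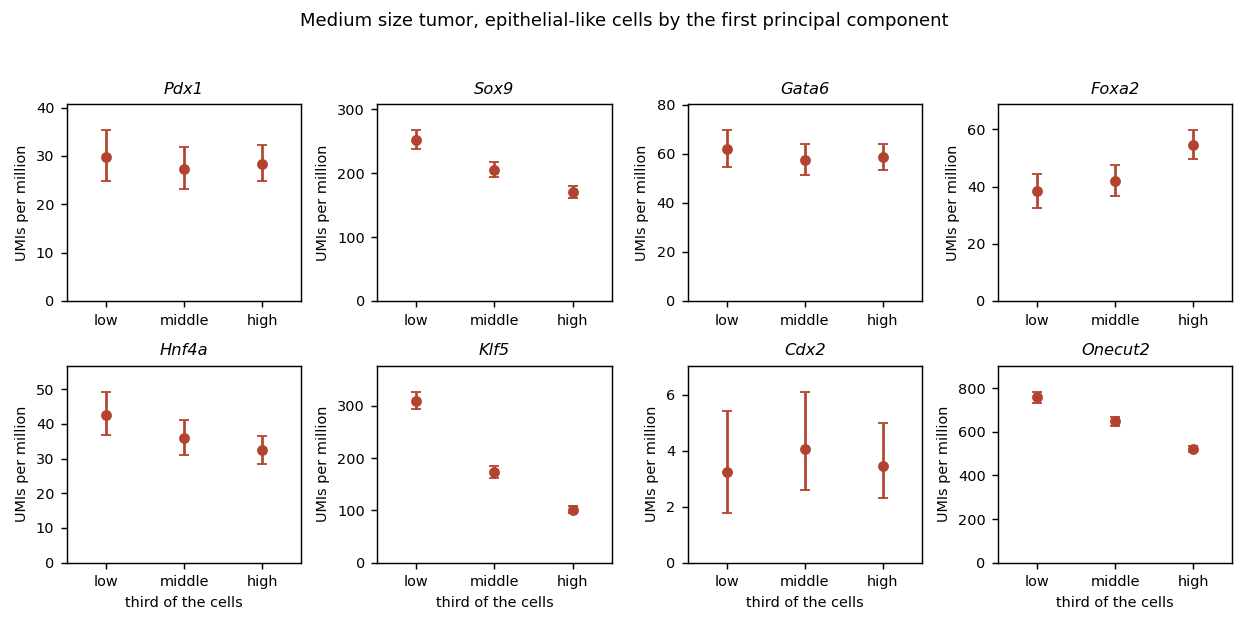
Levels of 8 factors, in CPM, at the low end, in the middle and at the high end of the 2327 medium epithelial-like cells ordered by the first principal component. Points are pooled levels and lines exact 95% Poisson intervals. Klf5 stepped down from 310.3 to 100.9 CPM while Foxa2 stepped up from 38.3 to 54.5 CPM.

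Beside the 9 factors, 4 lists of related genes were counted, none of them among the marker lists. Of 12 other endoderm factors, 7 were past 2-fold higher and 1 lower in epithelial-like than in other cells of the medium size tumor (median ratio 3.07), among them Gata5 (2.58), Foxa3 (3.60), Foxa1 (3.06) and Gata4 (4.40), whereas Hhex (1.24) and Prox1 (0.643) stayed within 2-fold. Of 16 acinar and endocrine factors, 13 had under 20 UMIs, 1 was higher (Glis3, 3.65), 1 was lower and 1 was within 2-fold, with a median ratio of 1.07. Of 20 stomach and intestine factors, 5 were higher and 4 lower, with Foxq1 (2.84), Ehf (3.59) and Spdef (3.26) higher and Klf4 (0.373), Vdr (0.231) and Osr1 (0.0561) lower. Of 8 gut adhesion and brush border genes, 6 were higher, with the gut cadherin Cdh17 at 5.13, Lgals4 at 4.14, Gpa33 at 3.99, Cdhr5 at 3.59 and Myo1a at 7.21.

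The gut adhesion genes were not left out of the component, so their values along it are a description. Of the 8, 6 were past 2-fold lower and 1, Cdhr2 (4.1, from 46 and 6 UMIs, named after its value was seen), was higher at the high end (median ratio of 7 tested, 0.254), the lower ones including Lgals4 (0.338), Cdh17 (0.254), Gpa33 (0.106), Cdhr5 (0.306) and Myo1a (0.0324). Of the stomach and intestine factors 7 were past 2-fold lower and 2 higher, with Hes1 (0.483), Ehf (0.279), Spdef (0.162) and Vdr (0.238) lower. Of the endoderm factors 4 were lower and 1 higher, with Hhex (0.368) and Prox1 (0.357) lower and Gata4 higher (2.77, from 12 and 62 UMIs). Of the acinar and endocrine factors 1 was higher, the beta cell factor Nkx6-1, with 22 UMIs at the high end and 0 at the low end, a ratio of at least 3.93.

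In the large size tumor, 7 of the 9 factors were past 2-fold higher in epithelial-like than in other cells, against 23.3% of 7596 genes. The median ratio was 6.71 over 8 factors and 1.21 over all genes. Not among the 7 were Pdx1, with a bound of at least 1.72, and Cdx2, with too few UMIs. All UMIs of Pdx1 (36) and of Cdx2 (9) lay in epithelial-like cells. So did 723 of 727 UMIs of Onecut2, 337 of 339 of Sox9, 145 of 148 of Klf5, 134 of 136 of Hnf4a and 91 of 93 of Gata6. Gata6, within 2-fold in the medium size tumor, was here 6.51 times higher in epithelial-like cells (1.75 to 54.6). The other cells held at most 4 UMIs of any factor, so the ratios are wide, such as 25.9 (10.1 to 95.2) for Onecut2 and 2.86 (0.742 to 24.4) for Cdx1. Monocyte/macrophage-like cells held 4 UMIs of Foxa2, or 20.4 CPM (5.56 to 52.2), and 0 of Sox9, Klf5, Pdx1, Cdx1 and Cdx2. The count of 7 fell to 3 at a resolution of 1.2, where 272 of the 279 cells of cluster 1 lost the epithelial-like name, and to 3 when each cell was classed by its own markers. At the resolution of 1.2 the direction turned for Sox9, from a ratio of 24.1 to 0.712, and for Foxa2, from 4.04 to 0.821.

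The large size tumor held 369 cells in intestinal-like clusters. Cluster 3 (233 cells) had 10 of 12 enterocyte markers and was led by Papss2, Apoa4 and Guca2b, and cluster 7 (136 cells) had 6 of 7 goblet cell markers and was led by Tff3, Lgals2 and Muc2. The other epithelial-like cells (850) were a cluster led by Ggct, Ramp1 and Ank with 4 of 9 mesenchymal markers (cluster 1), a shallow cluster led by 1500012F01Rik, with Onecut2, Xist and Malat1 among its leading genes (cluster 4), a cycling cluster (5), a gastric pit-like cluster (6) and 17 cells led by Upk3a (cluster 9). Vim was at 37.3 CPM in intestinal-like cells and 946.1 CPM in the others. Intestinal-like cells were the shallower, with a median of 851 UMIs. Whether the intestinal-like cells descend from the carcinoma was not tested.

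Hnf4a and Cdx1 set these cells apart, and Foxa2 went the opposite way. Hnf4a was at 201.4 CPM (146 to 270) in enterocyte-like and 191.2 CPM (129 to 273) in goblet-like cells, against 27.9 to 48.7 CPM in clusters 1, 4, 5 and 6. The intestinal-like level of 197.2 CPM was 5.20 times that of the other epithelial-like cells (3.65 to 7.44). Cdx1 had 28 UMIs in goblet-like cells, or 178.5 CPM (119 to 258), 12 UMIs in enterocyte-like cells, or 54.9 CPM (28.4 to 96.0), and 0 in the other 850 epithelial-like cells, so that it was at least 56.3-fold higher in the intestinal-like cells. The remaining 2 Cdx1 UMIs of the tumor lay in the stromal-like cluster. Goblet-like cells held 3.25 times as much Cdx1 as enterocyte-like cells (1.6 to 7.01), while Hnf4a did not part them (0.949, 0.576 to 1.54).

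Foxa2 had 0 UMIs in enterocyte-like cells, where 3 counts make 13.7 CPM, and 3 UMIs in goblet-like cells, against 55.8 to 86.4 CPM in clusters 1, 4, 5 and 6. Its ratio was 0.115 (0.0234 to 0.345), or 0.197 with every cell thinned to 500 UMIs, and the goblet-like level of 19.1 CPM was no higher than the 20.4 CPM of monocyte/macrophage-like cells. Foxa1, the close relative of Foxa2, was 3.14 times higher in the intestinal-like cells (1.92 to 5.08, from 32 and 43 UMIs). Pdx1, at 37.3 CPM (20.4 to 62.6) against 13.9 CPM (8.71 to 21), was 2.68 times higher (1.27 to 5.49), with 9 of its 36 UMIs in goblet-like cells. With at least 50 UMIs asked of a gene, only Foxa2 and Hnf4a of the 9 qualified past 2-fold.

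In all, 4 of the 8 factors with at least 20 UMIs were past 2-fold, 3 higher and 1 lower, against 41.5% of 7065 genes in either direction, so the number of factors past 2-fold was near that of genes in general. Sox9 was lower in intestinal-like cells at 0.536 times (0.372 to 0.753) and Onecut2 at 0.741 times (0.598 to 0.910), and Gata6 (1.78, 1.09 to 2.83) and Klf5 (1.5, 1.01 to 2.19) were higher, all within 2-fold. Cdx2 had only 9 UMIs in the tumor, 4 of them in goblet-like cells (25.5 CPM, 6.95 to 65.3), 1 in enterocyte-like cells and 4 elsewhere, too few for a call. Thinned to 500 UMIs a cell, the Sox9 ratio was 0.322. In cluster 3 of the medium size tumor, the one there with most goblet cell markers, Cdx1 had no UMI (3 counts make 1.87 CPM), Hnf4a was 1.16 times (0.887 to 1.5) and Foxa2 0.773 times (0.583 to 1.01) the level of the other epithelial-like cells.

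**Figure D3:**
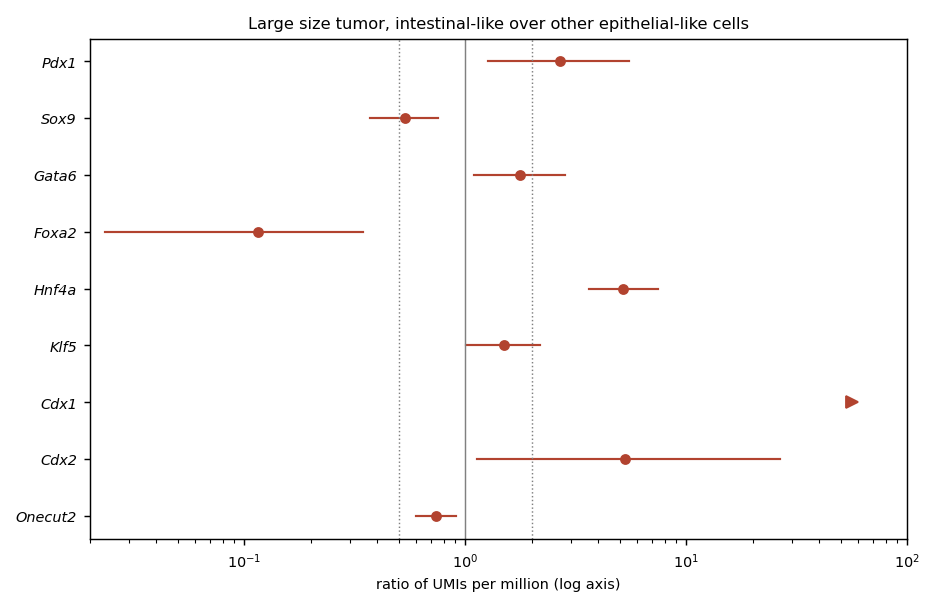
Ratio of the level in 369 intestinal-like cells to that in 850 other epithelial-like cells of the large size tumor, on a log axis. Points are ratios of pooled CPM, lines exact 95% intervals and dotted lines 2-fold. The triangle for Cdx1 is a lower bound, set by 0 UMIs in the other cells, and Foxa2 lies farthest to the left at 0.115.

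All 8 gut adhesion and brush border genes were past 2-fold higher, with a median ratio of 34.4, against 0.809 over all genes, including Lgals4 (7.44), Cdh17 (29.8), Gpa33 (8.71) and Muc13 (60). Unlike the factors, these genes were not left out of the clustering, so they could help form the clusters they are compared in and their ratios are a description. Of the 20 stomach and intestine factors 7 had enough UMIs. Of these, Creb3l3 (53.2), Vdr (45.7) and Tcf7l2 (2.59) were higher, Hes1 (0.414) and Ehf (0.346, named after its value was seen) were lower, and Klf4 (1.94) and Foxq1 (1.08) were within 2-fold. Of the other endoderm factors, Hhex (0.105) and Sox17 (at most 0.325, from 0 and 39 UMIs) were lower, beside Foxa1 higher. No acinar or endocrine factor reached 20 UMIs in these cells.

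Among the other epithelial-like clusters of the large size tumor, Sox9 was highest in cluster 1, with mesenchymal markers, at 303.5 CPM (255 to 359), above the 167.3 CPM (124 to 221) of the gastric pit-like cluster beyond counting error and lowest in enterocyte-like cells at 82.4 CPM (48.8 to 130). Klf5 was lowest in cluster 1 at 35.4 CPM (20.3 to 57.6), and it was at 112.7 CPM in gastric pit-like and 114.7 CPM in goblet-like cells. Cluster 5, next in the order at 60.8 CPM, had an interval that overlaps that of cluster 1, so the lowest place for Klf5 is not resolved. Cluster 1 against the other epithelial-like cells was 2.29 times higher for Sox9 (1.83 to 2.86) and 0.414 times for Klf5 (0.230 to 0.698). Foxa2 was highest in cluster 1 as well, at 86.4 CPM (61.4 to 118), with intervals that overlap those of clusters 4, 5 and 6. Onecut2 was highest in the gastric pit-like cluster, at 573.5 CPM (490 to 667), and in cluster 4, at 572.2 CPM (475 to 684), and lower in the cycling cluster, at 249.6 CPM (211 to 293).

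**Figure D4:**
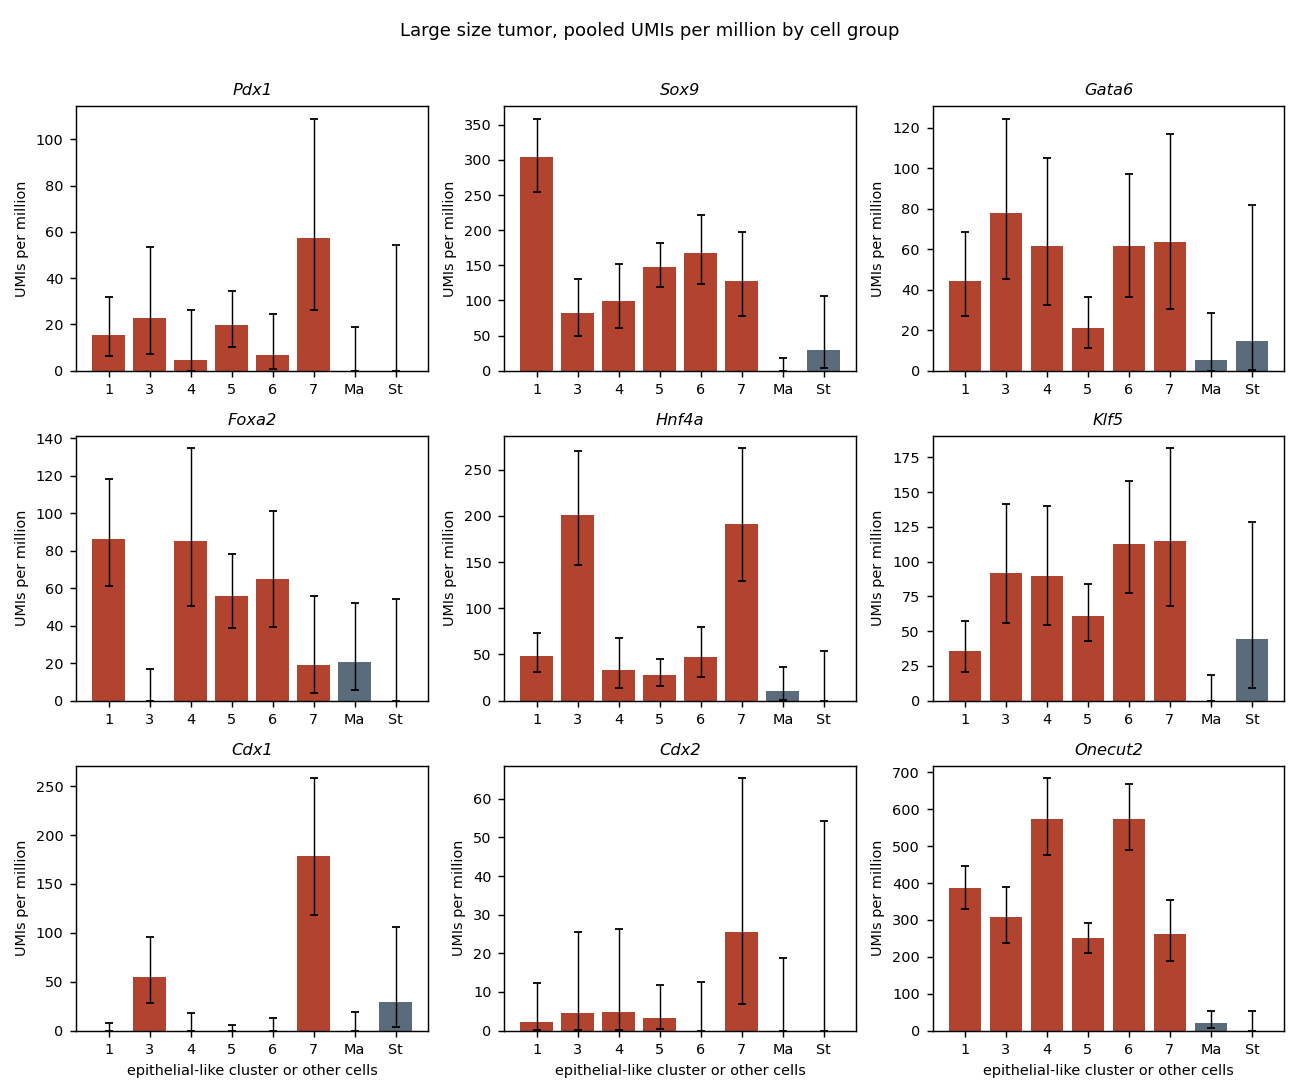
Levels of the 9 factors in the large size tumor, in CPM, for 6 epithelial-like clusters (red) and for monocyte/macrophage-like (Ma) and stromal-like (St) cells (grey). Bars are pooled levels and lines exact 95% Poisson intervals, and the clusters of 17 epithelial-like and 11 endothelial-like cells are left out. Hnf4a and Cdx1 stood out in clusters 3 and 7, and Foxa2 had 0 UMIs in cluster 3 and 3 in cluster 7.

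The tumors were set side by side by pairs of clusters, because of Ly6d, a gene of the B cell list, in the pooled class. Ly6d was among the leading genes of cluster 3 of the medium and cluster 9 of the large size tumor. These clusters held 10 and 7 of 11 epithelial markers. Lack of an epithelial marker among the leading genes does not set them apart, since of all epithelial-like clusters only medium cluster 6 had one. Size cannot be told apart from the tumor, the library and its depth. In the pooled class, 2 of the 9 factors were past 2-fold, Klf5 higher (2.35) and Cdx1 lower in the medium size tumor (at most 0.00813), against 29.7% of 12349 genes, and no direction is read from it. The pairs were the gastric pit-like clusters, the cycling clusters, and medium cluster 8 with large cluster 1, which each held 3 of 11 epithelial markers but share only Ggct among their 10 leading genes, so that this last pair is not shown to be the same state. In the gastric pit-like clusters, Sox9 (medium over large 1.27, 0.949 to 1.73), Gata6 (0.917, 0.565 to 1.58), Hnf4a (0.968, 0.561 to 1.81) and Onecut2 (1.12, 0.958 to 1.32) did not part beyond counting error, while Pdx1 was 4.21 times higher in the medium size tumor (1.14 to 35.2, from 100 and 2 UMIs). In the other pairs Onecut2 was higher in the medium size tumor, by 1.71 times (1.44 to 2.03) in cycling cells and 2.18 times (1.87 to 2.57) in cluster 8 against cluster 1. Klf5 was higher in the medium size tumor in all 3 pairs, by 1.90 times (1.34 to 2.78) in gastric pit-like, 2.05 times (1.47 to 2.96) in cycling cells and 2.47 times (1.47 to 4.42) in cluster 8 against cluster 1. Pdx1 was 2.13 times higher in the cycling cells of the medium size tumor (1.18 to 4.22) and Gata6 2.74 times (1.57 to 5.24), while in cluster 8 against cluster 1 neither Pdx1 (1.29, 0.57 to 3.44) nor Gata6 (1.35, 0.832 to 2.29) parted beyond counting error. For Hnf4a, the ratio of the pooled class was 0.525 with the intestinal-like cells of the large size tumor and 0.948 without them, with all medium epithelial-like cells kept.

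**Figure D5:**
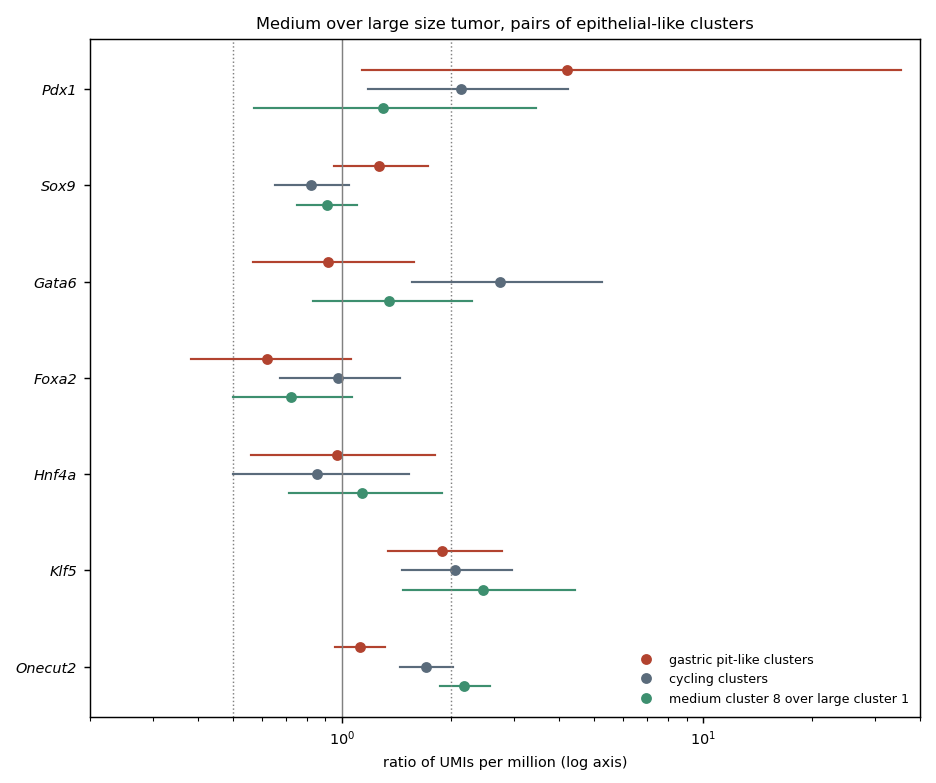
Ratio of the level in the medium to that in the large size tumor for 7 factors, on a log axis, in gastric pit-like clusters, cycling clusters and medium cluster 8 over large cluster 1. Points are ratios of pooled CPM, lines exact 95% intervals and dotted lines 2-fold. Klf5 lies above 1 in all 3 pairs.

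At full depth, several factors were often seen in 1 epithelial-like cell of the medium size tumor, but not of the shallower large size tumor. A median of 3 of the 9 factors had a UMI in an epithelial-like cell of the medium and 1 in the large size tumor, against 0 in monocyte/macrophage-like cells of both. Thinned to 500 UMIs a cell, the mean was 0.547 factors in the medium and 0.409 in the large size tumor, and 0.0378 and 0.0198 in their monocyte/macrophage-like cells. At that depth 55.5% of epithelial-like cells in the medium and 64.3% in the large size tumor held none, against 2.79% and 35.9% before thinning. Of the 34 intestinal-like cells with a Cdx1 UMI, 8 also had one of Hnf4a (23.5%), against 15.2% of the intestinal-like cells without Cdx1, and the former were deeper (median 1229.5 against 839 UMIs). Of the 613 medium epithelial-like cells with a Foxa2 UMI, 43.7% had one of Gata6, against 28.1% of those without, with medians of 8635 and 5319 UMIs. In the large size tumor's other epithelial-like cells the same shares were 5.94% and 7.08%, with medians of 1920 and 1402 UMIs. The part of depth in these differences was not tested.

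The genes most alike to each factor over all clusters of a tumor, by Pearson correlation of log2(CPM + 10), are given as a description, since clusters share a library. Over the 14 clusters of the medium size tumor and among 7830 genes, Hnf4a was most like Onecut2 (r = 0.964), and Onecut2 most like Baiap2l1 (0.984), with Hnf4a at rank 3. Pdx1 was most like Hadh (0.960), Sox9 like Cyb561 (0.975), Foxa2 like Pcbd1 (0.963), Klf5 like Plekha6 (0.966) and Gata6, the factor shared with mesothelial-like cells, like Tmem98 at a lower 0.878. Over the 10 clusters of the large size tumor and 1546 genes, Foxa2 was most like Cldn18 (0.942), a tight junction gene of stomach, Hnf4a like Mgst2 (0.933), Klf5 like Atp1b1 (0.948), Sox9 like Pcbd1 (0.961) and Onecut2 like Fnbp1l (0.990).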

How the data were processed

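Single-cell RNA counts of 1 medium and 1 large size tumor were used. The deposited counts, UMIs for each gene in each cell, were made by the authors with Cell Ranger on mm10, per the submitters' processing notes, and its version, the annotation and the strand setting are not given in the sources used here. The counts are raw, and the 4 technical replicates of a tumor cannot be separated in its table. Clustering was done for each tumor with Seurat 5.3.0 in R 4.3.3 (scale 10000, 2000 variable genes, 10 principal components, resolution 0.8). A marker counted in a cluster when seen in at least 10% of its cells and at 25% or more of its highest cluster level, 3 markers named a cluster, and 60% of another list left it unnamed. Intestinal-like clusters held over 50% of the enterocyte or goblet list. This name was given in the large size tumor only, so medium cluster 3, past that share of the goblet list, was not named so or left out. Scrublet, through scanpy 1.11.5, called 0 doublets in the medium size and 9 (0.587%) in the large size tumor. All cells were kept. Pooled UMIs were turned into CPM with exact 95% intervals (scipy 1.17.1), and called means past 2-fold with at least 20 UMIs in the groups together. A sum of 0 was set to 3 counts for a bound. The steps were tested on simulated data. Likeness was computed for factors with at least 100 UMIs among genes with at least 200. All 9 factors are reported, and of the companion lists the up to 4 genes with most UMIs past 2-fold and those over 100 UMIs that the text names. The factors, lists and tests were chosen with earlier results of these data known. Alternatives covered the genes used to cluster, resolution, components, class per cell, Scrublet scores, per-cell means, thinning to 2500 or 500 UMIs, which every cell reached, TMM (edgeR 4.0.16) and left-out clusters. An allele of the mice and single genes of the companion lists are not reported here.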

Additional observations from a re-analysis of the deposited data

How the results depend on the processing

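Of 53 recomputed counts of factors past 2-fold, 45 stayed within 1.5 times the reported count, and of 341 recomputed ratios of single factors, 290 stayed within counting error, 49 moved and 2 reversed. Epithelial-like against other cells gave 3 in place of 7 factors in both tumors at a resolution of 1.2, where 223 of the 225 cells of medium cluster 8 and 272 of the 279 cells of large cluster 1 lost the epithelial-like name for holding too few epithelial markers, and in the large size tumor also 3 with each cell classed by its own markers. At that resolution the ratio of epithelial-like to other cells in the large size tumor turned below 1 for Sox9 (0.712) and Foxa2 (0.821), and 6 in place of 3 factors were past 2-fold in at least 1 medium cluster. With at least 50 UMIs, the intestinal-like comparison gave 2 in place of 4 factors and the comparison of sizes 1 in place of 2, because fewer genes qualified. Along the component, 2 in place of 1 factor were past 2-fold without cluster 8 and 2 without cluster 3, both chosen after seeing the data, as were the other alternatives that leave out a cluster and the minimum of 50 UMIs in comparisons other than that of sizes. The cause of the other moves was not tested. TMM multiplied the ratios of medium to large by 0.955 and changed no call among pooled epithelial-like cells. No paired analysis was possible because the technical replicates share a number in the labels but their columns carry none, and leaving one out was not possible for the same reason. Values of Cdx1 and Cdx2 and most of the large size tumor are limited by depth, where 3 UMIs over all cells make 1.34 CPM against 0.148 CPM in the medium size tumor.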
